A study of Sus scrofa with 63 samples.

Results

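MMP1, PLAU and ADAMTS1 encode secreted proteases of wounded skin, and TIMP1 encodes an inhibitor of matrix metalloproteinases such as MMP1. Their transcripts were followed in pig skin from 1 to 514 h after sulfur mustard, an alkylating blister agent. The 4 genes were taken by symbol from the array annotation, which gave 6765 genes with a single symbol. They have 5 of the 23999 probe sets tested, 1 each for MMP1, PLAU and TIMP1 and 2 for ADAMTS1. For ADAMTS1 the probe set with the higher mean over all arrays was used.

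MMP1 is the interstitial collagenase, which cuts native fibrillar collagen and is made by keratinocytes at a wound edge and by activated fibroblasts. PLAU is urokinase, the plasminogen activator that turns plasminogen into plasmin at the cell surface and so starts the removal of fibrin. ADAMTS1 is a secreted metalloproteinase that cuts the large proteoglycans versican and aggrecan. TIMP1 binds the active site of matrix metalloproteinases and is also a secreted product of fibroblasts and myeloid cells, so collagen loss in a wound depends on the balance of both sides.

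The animals were female Yorkshire crossbred pigs, depilated on the ventral abdomen. Exposed sites were lesions of 3 cm made by 400 µL of undiluted agent left on the skin for 8 min. Control sites were unexposed skin of the same 3 animals of a time, and the sham site came from 1 further animal prepared in the same way without agent. Skin was sampled with an 8 mm punch after 1, 2, 4, 24, 48, 72, 168, 336 and 514 h (the design text gives the last time as 21 days), with 3 exposed, 3 control and 1 sham array at each. The biopsies are mixed tissue, in which a change in the number of cells of a type cannot be told apart from a change in RNA per cell.

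The 63 arrays had medians of 7.75 to 7.86 on the log2 scale, and their number limits the precision. Skin markers were high in the control biopsies, with means of 14.12 for keratin KRT10 and 13.86 for the dermal proteoglycan DCN. The arrays were scanned in 3 periods, and successive times always lay in different periods. A difference between exposed and control lies within a time and a period. The levels at different times cannot be told apart from the period. Skeletal muscle transcripts varied widely in control biopsies, with a mean log2 score of 7.30 to 13.55 over 19 genes.

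Each of the 4 genes rose in exposed skin at one time or another, and none was called lower at a single time in the fit without a replicate block. Every value below is a log2 signal of a probe set, and differences are exposed minus control on that scale, with the standard error (SE) of the limma fit and a p adjusted over all 23999 probe sets. The SE of a gene rests on the spread within the groups of all times together. It is therefore the same at each time and does not show the spread of the arrays of a single time. A gene is called higher or lower where this p is under 0.05. At 1 h, 0 of the 4 genes were called by limma (1 at an unadjusted p under 0.05), when 0.413% of all probe sets were called higher. PLAU and ADAMTS1 were higher at 2 h, against 0.338% of all probe sets, and again at 4 h, against 1.11%. At 24 h it was PLAU, ADAMTS1 and TIMP1, against 14.4%. MMP1, PLAU and TIMP1 were higher at 48 h, against 5.84%, and at 72 h, against 5.4%. All 4 were higher at 168 h, against 9.87%. At 336 h 2 of 4 were higher, MMP1 and PLAU, against 2.38%, and at 514 h 1 of 4, MMP1, against 3.7%. Among the 6765 genes, each at the probe set of highest mean like the 4, larger shares were called higher at every time. From 1 to 514 h these were 0.488%, 0.503%, 1.48%, 24.9%, 11.5%, 9.12%, 14.5%, 4.18% and 5.56%.

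**Figure D1:**
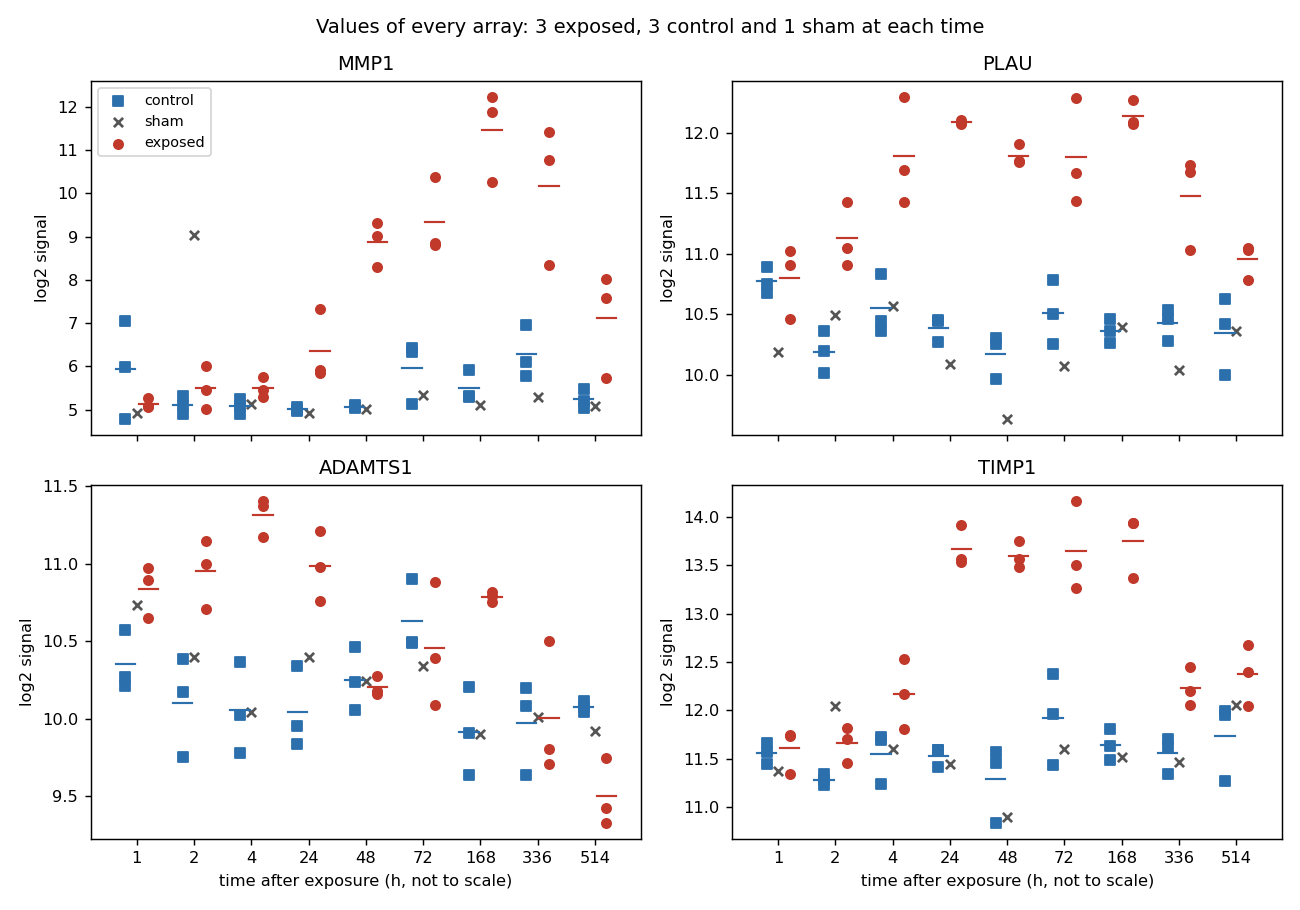
Log2 signal of every array for the 4 genes at 9 times (evenly spaced, not to scale): 3 exposed arrays (circles), 3 control arrays (squares) and 1 sham array (cross) per time, with short lines at the exposed and control means. MMP1 exposed arrays reach 12.22 at 168 h while control arrays stay at or below 7.06, and a single sham array at 2 h stands at 9.03.

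MMP1, the collagenase, had the largest differences. It was not called in the first day, was higher from 48 h on, and at 168 h stood 5.95 ± 0.58 (SE, n = 3 exposed and 3 control arrays) above control. On a linear scale that is 61.8-fold. Counted from the highest of 6765 genes, its difference ranked 4 (48 h), 6 (72 h), 3 (168 h), 2 (336 h) and 16 (514 h).

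At the early times the MMP1 signal lay at the dim end of the arrays. Of all values on the arrays 10% lay below 5.34, and 18 of 27 control arrays, 7 of 9 sham arrays and 5 of 27 exposed arrays of MMP1 were below it. At 1 h the exposed arrays read 5.08, 5.27 and 5.06, the control arrays 5.99, 7.06 and 4.79 and the sham array 4.92. The exposed arrays lay within the range of the controls, and the difference was -0.81 (adjusted p = 0.699). At 2 h the exposed arrays read 5.02, 6.00 and 5.44, the controls 4.89, 5.10 and 5.31 and the sham array 9.03. At 4 h the values were 5.28, 5.45 and 5.76 in exposed, 5.24, 5.09 and 4.89 in control and 5.12 in sham skin. Exposed arrays overlapped the controls at 2 h and all lay just above them at 4 h, with differences of 0.39 and 0.42 that did not pass the test (adjusted p = 1 and 0.986).

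At 24 h the MMP1 values were 5.85, 5.92 and 7.32 in exposed, 4.96, 5.06 and 4.99 in control and 4.91 in sham skin. All 3 exposed arrays were above all controls, and 1 of them stood well above the others. The difference of 1.36 ± 0.58 did not pass the test (adjusted p = 0.0761), while it did with the 6 arrays of 24 h alone (adjusted p = 0.0281) and with the labelling run as a covariate (adjusted p = 0.0308). Without exposed replicate 3, the high array, it was 0.88 (adjusted p = 0.371). At 48 h the exposed arrays read 9.31, 9.01 and 8.29, the controls 5.10, 5.06 and 5.02 and the sham array 5.02. This gap was wider than the spread of either group, with a difference of 3.81 (14.0-fold, adjusted p = 1.69e-05). At 72 h the values were 8.85, 8.81 and 10.37 against 6.33, 5.14 and 6.41 and a sham value of 5.35, and the groups did not overlap (difference 3.38, adjusted p = 8.36e-05).

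The highest MMP1 arrays of the study came at 168 h. The exposed arrays read 11.89, 12.22 and 10.25, the control arrays 5.31, 5.29 and 5.91 and the sham array 5.09. Even the lowest exposed array was far above every control (adjusted p = 6.40e-10), and the difference was 5.56 without exposed replicate 2 and 6.55 without exposed replicate 3. Of the 3 control arrays 2 lay below 5.34, at the dim end, and what this does to the fold was not tested.

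MMP1 was still high at 336 h, with exposed values of 11.42, 10.77 and 8.34, control values of 6.95, 6.11 and 5.77 and a sham value of 5.28. The exposed arrays were spread more widely here than at any earlier time, and all lay above the controls. The difference was 3.90 ± 0.58 (adjusted p = 3.53e-05), and 4.82 without exposed replicate 3. With the 6 arrays of 336 h alone the adjusted p was 0.0501. At 514 h the exposed arrays read 7.58, 8.02 and 5.74, the controls 5.04, 5.49 and 5.19 and the sham array 5.08. Each exposed array was above each control, but the lowest exposed array was close to them. The difference of 1.87 passed narrowly (adjusted p = 0.0431). It no longer passed without exposed replicate 1 (1.64) or 2 (1.42), or without control replicate 1 (1.77), 2 (2.00) or 3 (1.85), with the 6 arrays of 514 h alone (adjusted p = 0.0976), or with a variance trend in the fit (adjusted p = 0.0534).

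PLAU, the plasminogen activator, was the gene called at the most times. It was higher at 7 of 9 times, from 2 to 336 h, by 0.94 to 1.78, with an SE of 0.20 at each time. Control arrays moved little over the study, from 9.97 to 10.89. At 1 h the exposed arrays read 10.91, 10.46 and 11.02, the controls 10.68, 10.75 and 10.89 and the sham array 10.19. Exposed and control arrays overlapped, and the difference was 0.02 (adjusted p = 0.992).

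At 2 h the PLAU values were 11.05, 11.43 and 10.91 in exposed, 10.01, 10.36 and 10.19 in control and 10.49 in sham skin. At 4 h they were 11.69, 12.30 and 11.43 in exposed, 10.36, 10.83 and 10.45 in control and 10.56 in sham skin. The groups did not overlap at either time. The differences were 0.94 at 2 h (adjusted p = 0.00923) and 1.26 at 4 h (adjusted p = 4.76e-05). The call at 2 h was lost without exposed replicate 2 (0.79, adjusted p = 0.219) or control replicate 1 (0.85, adjusted p = 0.117), and against the sham array in place of controls (0.64, adjusted p = 0.742). With the 6 arrays of a time alone the adjusted p was 0.305 at 2 h and 0.176 at 4 h.

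At 24 h the exposed PLAU arrays were nearly alike at 12.08, 12.11 and 12.09, against 10.46, 10.44 and 10.27 in control and 10.09 in sham skin. At 48 h they read 11.91, 11.76 and 11.77, against 10.30, 10.26 and 9.97 and a sham value of 9.64. At 72 h they were 11.67, 11.44 and 12.29, against 10.79, 10.50 and 10.25 and a sham value of 10.08. All exposed arrays of these times were above all control arrays of these times, and the differences were 1.70, 1.64 and 1.29 (adjusted p = 1.28e-08, 2.45e-07 and 1.83e-05).

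The exposed PLAU values at 168 h were 12.07, 12.27 and 12.09, the controls 10.26, 10.36 and 10.46 and the sham 10.40. This was the largest difference of the gene, 1.78 (3.44-fold, adjusted p = 1.04e-08). At 336 h the exposed arrays read 11.68, 11.74 and 11.03, the controls 10.54, 10.46 and 10.28 and the sham array 10.03. At 514 h the exposed arrays read 11.05, 11.03 and 10.78, the controls 9.99, 10.62 and 10.42 and the sham array 10.36. Exposed arrays stayed above controls at both times, with a difference of 1.06 at 336 h (adjusted p = 0.000714) and of 0.61 at 514 h. The last did not pass the test (adjusted p = 0.0561), but did without control replicate 2 (0.75, adjusted p = 0.0374) and with the replicate number as a block, which pairs the arrays at this time (adjusted p = 0.0265).

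ADAMTS1, the versican and aggrecan protease, was an early gene with a second peak at 168 h. It was higher at 2, 4, 24 and 168 h and near control at 48, 72 and 336 h. The SE of each difference was 0.20. Exposed arrays read 10.89, 10.65 and 10.97 at 1 h, against 10.27, 10.21 and 10.57 in control and 10.73 in sham skin. All 3 were above all controls, but the sham array lay among them, and the difference of 0.49 did not pass (adjusted p = 0.304).

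At 2 h the ADAMTS1 values were 11.00, 11.15 and 10.71 in exposed, 9.75, 10.39 and 10.18 in control and 10.40 in sham skin. At 4 h they were 11.17, 11.37 and 11.40 in exposed, 10.02, 9.78 and 10.37 in control and 10.04 in sham skin. At 24 h they were 10.98, 11.21 and 10.76 in exposed, 9.84, 10.34 and 9.95 in control and 10.40 in sham skin. Exposed arrays cleared all controls at these 3 times, and the sham array as well. The difference peaked at 4 h at 1.26 (2.39-fold, adjusted p = 5.11e-05), with 0.85 at 2 h (adjusted p = 0.0317) and 0.94 at 24 h (adjusted p = 0.000272). The call at 2 h was lost without exposed replicate 1 (0.82) or 2 (0.75), without control replicate 1 (0.67) or 3 (0.88), after a further quantile normalization (0.77), with the 6 arrays of 2 h alone (adjusted p = 0.559), and against the sham array (0.56). The call at 4 h was lost with the 6 arrays of 4 h alone (adjusted p = 0.0532), and that at 24 h against the sham array (0.58, adjusted p = 0.188).

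By 48 h the exposed ADAMTS1 arrays read 10.18, 10.28 and 10.16, among controls of 10.46, 10.06 and 10.23 and a sham value of 10.24. At 72 h they read 10.39, 10.09 and 10.88, against 10.50, 10.49 and 10.90 and a sham value of 10.34. Exposed and control arrays overlapped at both times, with differences of -0.05 and -0.18 (adjusted p = 0.951 and 0.696). At 168 h the exposed arrays were 10.79, 10.82 and 10.75, the controls 9.91, 10.21 and 9.64 and the sham array 9.91. This was a clear separation again, with a difference of 0.87 (adjusted p = 0.00127).

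At 336 h the ADAMTS1 arrays read 9.81, 9.71 and 10.50 in exposed, 10.20, 9.64 and 10.09 in control and 10.01 in sham skin, which overlapped (difference 0.03, adjusted p = 0.979). At 514 h the exposed arrays were 9.75, 9.33 and 9.43, the controls 10.12, 10.07 and 10.04 and the sham array 9.92. All 3 exposed arrays were below every control, the only time this was seen for any of the 4 genes. The difference of -0.58 did not pass the test (adjusted p = 0.0766). It did, as lower in exposed skin, with the replicate block (adjusted p = 0.0157), with the 6 arrays of 514 h alone (adjusted p = 0.0451) and after a further quantile normalization (-0.63, adjusted p = 0.0491). The second ADAMTS1 probe set gave differences of the same sign at 9 of 9 times and was called higher at 3 of them. At 2 h it was not called (0.88, adjusted p = 0.123).

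TIMP1, the inhibitor, was high in all skin and rose between 4 and 24 h. It was higher than control at 24, 48, 72 and 168 h by 1.72 to 2.31, with an SE of 0.22. At 1 h the exposed arrays read 11.75, 11.34 and 11.74, the controls 11.67, 11.58 and 11.45 and the sham array 11.37. At 2 h they read 11.46, 11.82 and 11.71, against 11.23, 11.29 and 11.35 and a sham value of 12.04. The groups overlapped at 1 h, and at 2 h the sham array was above every exposed array. Neither difference passed (0.05 and 0.38, adjusted p = 0.982 and 1).

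At 4 h the TIMP1 values were 12.16, 12.53 and 11.81 in exposed, 11.24, 11.70 and 11.72 in control and 11.61 in sham skin. The exposed arrays were above all controls, but the difference of 0.61 did not pass (adjusted p = 0.238). At 24 h the exposed arrays read 13.56, 13.54 and 13.91, the controls 11.59, 11.59 and 11.42 and the sham array 11.44. At 48 h they read 13.75, 13.48 and 13.57, against 11.45, 10.84 and 11.57 in control and 10.90 in sham skin. The gap now exceeded the spread of both groups, with differences of 2.14 (4.40-fold, adjusted p = 1.77e-09) and 2.31 (4.96-fold, adjusted p = 3.43e-09).

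At 72 h the exposed TIMP1 arrays read 13.50, 13.26 and 14.16, the controls 12.37, 11.44 and 11.96 and the sham array 11.60. At 168 h they read 13.94, 13.93 and 13.36, against 11.49, 11.80 and 11.63 and a sham value of 11.52. No exposed array of these times came near a control, and the differences were 1.72 and 2.10 (adjusted p = 1.51e-06 and 5.41e-09). At 336 h the exposed arrays read 12.21, 12.45 and 12.06, the controls 11.71, 11.35 and 11.62 and the sham array 11.47. At 514 h they read 12.05, 12.68 and 12.40, against 11.27, 11.99 and 11.96 and a sham value of 12.06. The exposed arrays stayed above the controls at both times, by 0.68 and 0.64, which did not pass (adjusted p = 0.0794 and 0.0873). With the replicate block both passed (adjusted p = 0.0289 and 0.0371), and at 336 h it also did with the 6 arrays of that time alone (adjusted p = 0.0488).

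**Figure D2:**
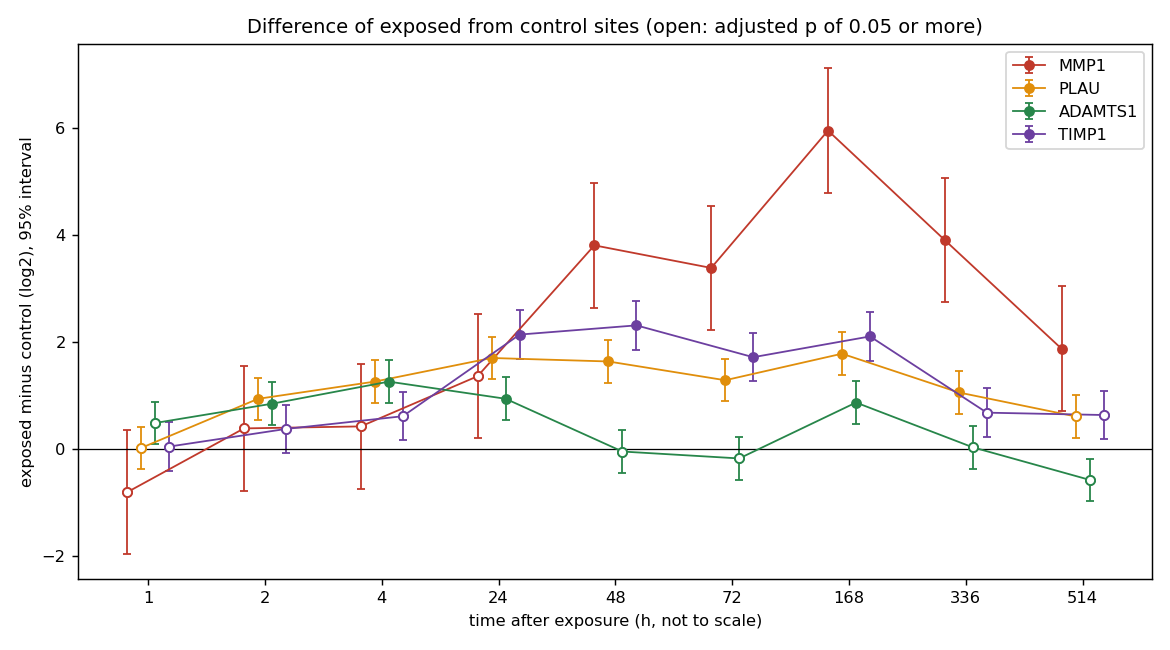
Exposed minus control difference (log2) of the 4 genes at 9 times (evenly spaced, not to scale), from the limma fit, with 95% intervals and open symbols where the adjusted p was 0.05 or more. ADAMTS1 peaks at 4 h at 1.26, TIMP1 at 48 h at 2.31, and PLAU and MMP1 at 168 h at 1.78 and 5.95.

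The responses of all 4 genes varied over time. An F test in limma, on whether the exposed minus control difference was the same at all 9 times, gave an adjusted p of 5.14e-07 for MMP1, 6.82e-05 for PLAU, 1.68e-05 for ADAMTS1 and 2.12e-07 for TIMP1, while 18.7% of all probe sets passed. In the fit without a replicate block only TIMP1 had single steps between successive times that passed. Its difference grew by 1.53 from 4 to 24 h (adjusted p = 0.00115, against 10.7% of probe sets called in either direction) and fell by 1.42 from 168 to 336 h (adjusted p = 0.0122, against 1.13%). The later step was lost without exposed replicate 1 of 168 h (-1.33, adjusted p = 0.0547).

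Other steps of the genes did not pass in that fit. From 24 to 48 h the ADAMTS1 step was -0.99 (adjusted p = 0.0504) and the MMP1 step 2.44 (adjusted p = 0.113), against 2.07% of probe sets called. From 72 to 168 h the MMP1 step was 2.57 (adjusted p = 0.225) and the ADAMTS1 step 1.04 (adjusted p = 0.110), against 0.163% called. At 336 to 514 h 0.0125% were called. At the steps from 1 to 2 h, 2 to 4 h and 48 to 72 h limma called 0% of probe sets, 0 in each, with 723, 395 and 880 at an unadjusted p under 0.05.

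Averaged over 3 times, with 9 exposed and 9 control arrays, the genes split by period. At 1 to 4 h PLAU (0.74 ± 0.11) and ADAMTS1 (0.86 ± 0.11) were higher, against 2.07% of all probe sets, with MMP1 at 0.00 and TIMP1 at 0.35 (adjusted p = 1.00 and 0.128). At 24 to 72 h MMP1 (2.85 ± 0.33), PLAU (1.54 ± 0.11) and TIMP1 (2.06 ± 0.13) were higher, against 18.2%. ADAMTS1 was at 0.24 (adjusted p = 0.102), and passed without exposed replicate 2 of 72 h (0.30, adjusted p = 0.0373). At 168 to 514 h MMP1 (3.91 ± 0.33, 15.0-fold), PLAU (1.15 ± 0.11) and TIMP1 (1.14 ± 0.13) were higher, against 12%, with ADAMTS1 at 0.11 (adjusted p = 0.558). Among the 6765 genes, the shares called higher in the 3 windows were larger, 2.85%, 30.8% and 18.9%. Exposed and control arrays of a window did not overlap for PLAU at 24 to 72 h (11.44 to 12.29 against 9.97 to 10.79) and at 168 to 514 h (10.78 to 12.27 against 9.99 to 10.62). The same held for TIMP1 in both windows and for ADAMTS1 at 1 to 4 h (10.65 to 11.40 against 9.75 to 10.57). The share of all probe sets that separate in this way was not counted, for windows or for single times. How unusual such a separation is was therefore not established.

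None of the 4 genes was called different in sham skin. The mean sham minus control difference over 9 times was 0.07 for MMP1, -0.21 for PLAU, 0.07 for ADAMTS1 and -0.01 for TIMP1. Limma called 0 of the 4 (1 at an unadjusted p under 0.05, PLAU), against 0.0208% of all probe sets. For PLAU the sham array was below all 3 exposed arrays at 9 of 9 times, for MMP1 at 8, for TIMP1 at 6 and for ADAMTS1 at 4. How often this holds over all probe sets was not counted. The PLAU sham array was also below all control arrays at 5 times, 1 h among them. The MMP1 exception was the sham array of 2 h at 9.03, a level otherwise reached only in exposed skin from 48 h on. The same array was above all controls of 2 h for TIMP1 (12.04 against at most 11.35) and PLAU (10.49 against at most 10.36). For ADAMTS1 it was barely so (10.396 against at most 10.386), and not with the second probe set. The share of all probe sets for which this array exceeded the controls was not counted. Without the sham array of 2 h the mean MMP1 sham difference was -0.41.

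The lesions were also scored by histology, and the values are given here side by side without a test. Pustular scores at 24 h were 0, 0 and 3 in replicates 1 to 3, and the MMP1 array at 7.32 was the one with the score of 3, as was the highest TIMP1 array, 13.91. The same lesion was the lowest of the 3 for ADAMTS1 (10.76 against 10.98 and 11.21) and between the others for PLAU (12.09). At 72 h the scores were 3, 0 and 4, and the array with the score of 4 was highest for MMP1 (10.37), PLAU (12.29), ADAMTS1 (10.88) and TIMP1 (14.16). At 48 h the scores were 2, 3 and 1, and the highest MMP1 array, 9.31, had the score of 2. The lesion with the score of 3 was the lowest there for PLAU (11.76) and TIMP1 (13.48) and the highest for ADAMTS1 (10.28). So the most pustular lesion carried the highest MMP1 value at 24 and 72 h but not at 48 h. At 24 and 72 h that lesion, replicate 3, also had another sacrifice day than replicates 1 and 2. At 24 h its labelling run differed as well, so score, animal and these conditions cannot be told apart.

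All 3 lesions of 168 h were open, and all 3 of 514 h had re-epithelialized. At 336 h the lesions of replicates 1 and 2 were open, with MMP1 at 11.42 and 10.77, and that of replicate 3 had closed, with MMP1 at 8.34. The closed lesion was also the lowest of the 3 for PLAU (11.03 against 11.68 and 11.74) and TIMP1 (12.06 against 12.21 and 12.45), and the highest for ADAMTS1 (10.50 against 9.81 and 9.71). The closed lesion also differed from those of replicates 1 and 2 in sacrifice day, RNA extraction run and labelling run. With 1 closed lesion at the only time that holds both states, closure cannot be told apart from animal, day or these runs.

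The 4 genes were set beside lists of other genes of their pathways, by counts. Of all 6765 genes 2.85%, 30.8% and 18.9% were called higher at 1 to 4 h, 24 to 72 h and 168 to 514 h, and 2.73%, 14.3% and 10.5% lower. A list whose share is near these values does not stand out from other genes. Of 22 listed matrix metalloproteinases 8 were measured, MMP1 among them. At 1 to 4 h 0 of 8 passed (0 at an unadjusted p under 0.05), at 24 to 72 h MMP1 alone, and at 168 to 514 h 6 of 8 were higher. The median difference was 0.00, 0.06 and 0.46 in the 3 windows, against a median near 0 over all probe sets. The late genes were the collagenase MMP13 (1.04), the epithelial matrilysin MMP7 (0.88), the membrane-bound MMP14 (0.58) and the gelatinases MMP2 (0.33) and MMP9 (0.24).

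Of single times, MMP7, MMP14, MMP2 and MMP9 were called at 168 h, by 1.16, 0.68, 0.58 and 0.56. MMP13 was called at 336 h, by 2.03 ± 0.26 (adjusted p = 2.57e-06). Whether their times differ from those of MMP1 was not tested, and 4 of the 8 genes had an unadjusted p under 0.05 at 72 h and 4 at 336 h. Neither the stromelysin MMP3 nor the enamel protease MMP20 was called in any window or at any time. In the RefSeq annotation of the pig (Sscrofa11.1) MMP1 lies between MMP8 and MMP3, in a cluster with MMP7, MMP20, MMP27, MMP12 and MMP13. Of these neighbours 4 were measured, and at 24 to 72 h, when MMP1 was 2.85 above control, they were at -0.43 (MMP7), 0.00 (MMP20), 0.00 (MMP3) and 0.05 (MMP13), with adjusted p of 0.112 to 0.991. Whether the MMP1 probes also detect these related transcripts was not tested.

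**Figure D3:**
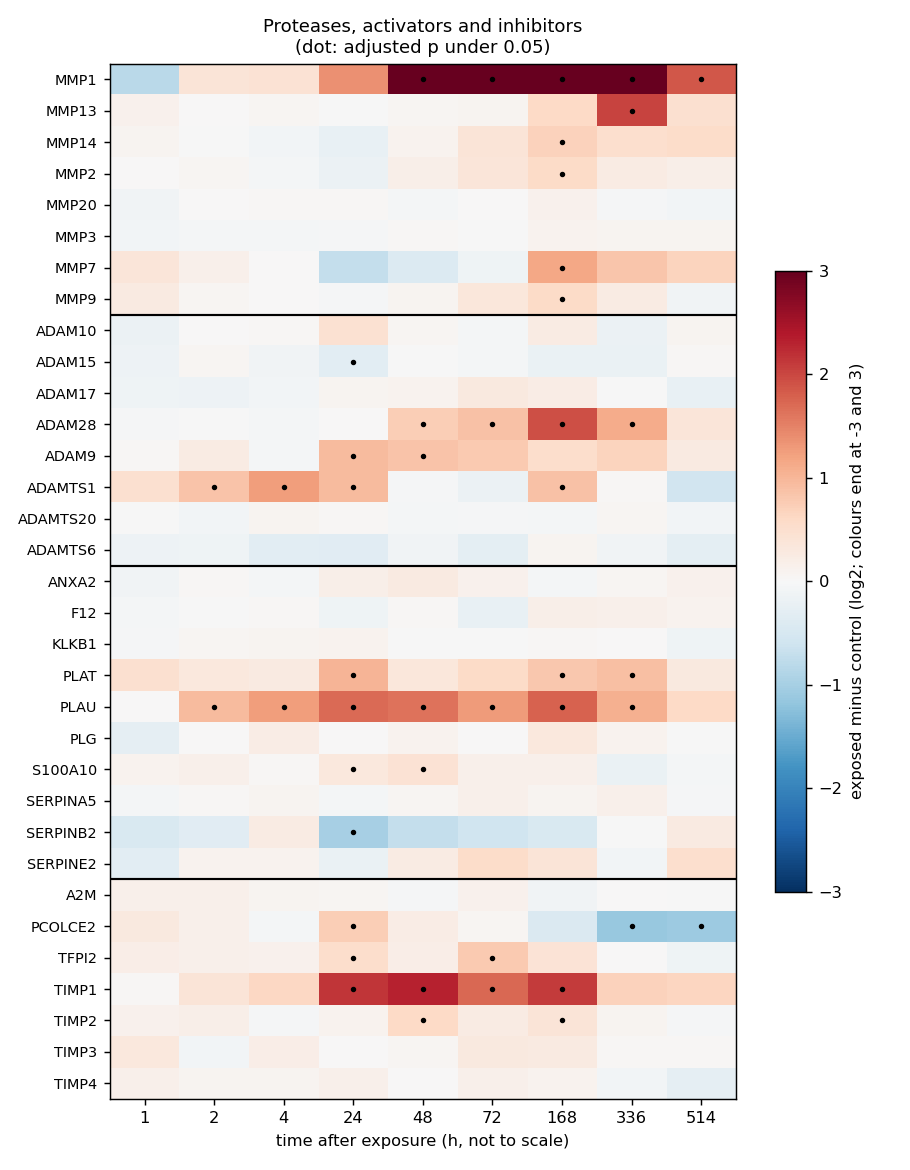
Exposed minus control difference (log2, colours end at -3 and 3) of the measured genes of 4 lists at 9 times: matrix metalloproteinases, ADAM and ADAMTS proteases, plasminogen activation, and inhibitors, from top to bottom, with a dot where the adjusted p was under 0.05. MMP1 reaches 5.95 at 168 h, beyond the end of the colours, and MMP13 reaches 2.03 at 336 h.

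Among 8 measured ADAM and ADAMTS proteases of 27 listed, ADAMTS1 was the only one called at 1 to 4 h, and 2 were called higher in each later window, near the share of all genes. Both were ADAM9 and ADAM28, membrane-anchored proteases that shed surface proteins. ADAM28 was 0.54 above control at 24 to 72 h and 1.14 at 168 to 514 h, with its largest difference at 168 h, 1.94 ± 0.19. ADAM9 was at 0.86 and 0.48. The other 2 measured ADAMTS genes, ADAMTS6 and ADAMTS20, were not called in any window.

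Of 10 measured genes of plasminogen activation, 1 was higher at 1 to 4 h (PLAU), 4 were higher but 1 lower at 24 to 72 h, and 2 were higher at 168 to 514 h, which is near the shares of all genes in the later windows. PLAT, the tissue-type plasminogen activator, rose by 0.65 at 24 to 72 h and 0.67 at 168 to 514 h, beside 1.54 and 1.15 for PLAU. S100A10, which binds PLAT and plasminogen at the cell surface, rose by 0.31 at 24 to 72 h. SERPINB2, an inhibitor of urokinase, fell by 0.77 in the same window and by 1.01 at 24 h.

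Of 7 measured genes in the inhibitor list, 0 passed at 1 to 4 h (1 at an unadjusted p under 0.05), 4 were higher at 24 to 72 h, and 1 was higher and 1 lower at 168 to 514 h. TIMP1 had the largest difference of the 7 in both later windows (2.06 and 1.14). TIMP2, the inhibitor that also takes part in MMP2 activation, rose by 0.31 at 24 to 72 h, and TFPI2, an inhibitor of serine proteases such as plasmin, by 0.50. PCOLCE2 stands in this list through its inhibitor-like domain but enhances procollagen processing. It rose by 0.34 at 24 to 72 h and fell by 0.88 at 168 to 514 h. TIMP3 and TIMP4 were not called in any window or at any time.

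In the list of cathepsins, leukocyte proteases and their inhibitors, 17 were measured, of which 1, 12 and 10 were higher in the 3 windows and 0 lower. The cysteine proteases CTSZ (1.10 at 24 to 72 h) and CTSS (0.98 at 24 to 72 h and 1.05 at 168 to 514 h) rose, as did the elastase inhibitors SLPI (1.04 and 1.18) and, at 168 to 514 h, SERPINB1 (1.03). CSTB, a cathepsin inhibitor, was the gene called at 1 to 4 h, by 0.27. Leaving MMP1, PLAU, ADAMTS1 and TIMP1 out, 46 protease, activator and inhibitor genes were measured in the 5 lists so far, of which 1, 20 and 18 were higher and 0, 1 and 1 lower in the 3 windows, to be read against the shares of all genes above. Their median differences were 0.07, 0.15 and 0.14, and their highest were 0.35, 1.10 and 1.18.

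Matrix proteins, the substrates, moved both ways. Of 17 measured, 1 was higher at 1 to 4 h, then 2 higher against 7 lower at 24 to 72 h, followed by 4 higher against 5 lower at 168 to 514 h. THBS1, a matricellular protein of early wounds, rose in all 3 windows, by 1.44, 1.77 and 1.23. VCAN, the versican that ADAMTS1 cuts, rose by 0.71 at 24 to 72 h and 0.54 at 168 to 514 h. The fibrillar collagen gene COL5A1 fell by 0.75 at 24 to 72 h, and COL1A2, of the main dermal collagen, fell by 1.01 at 168 to 514 h.

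Markers of neutrophils and macrophages were higher in both later windows, as were PLAU, TIMP1 and MMP1, but the calls at single times differed. Of 22 listed neutrophil and macrophage genes 14 were measured. At 1 to 4 h 0 of 14 passed (1 at an unadjusted p under 0.05), and 13 of 14 were higher in each later window. The exception at 24 to 72 h was the integrin ITGAM (0.04). At 24 h 10 of 14 were higher, against 24.9% of all genes, when MMP1 was not called. At 168, 336 and 514 h 13, 4 and 3 of 14 were higher, against 14.5%, 4.18% and 5.56% of all genes. At an unadjusted p under 0.05 the counts were 14, 11 and 3, with median differences of 1.61, 0.69 and 0.08. All 14 were above control at 336 h, the lowest by 0.31, so the fall in calls there partly reflects the threshold. MMP1 was called at all 3 of these times, PLAU at 168 and 336 h and TIMP1 at 168 h alone. S100A9, the neutrophil calgranulin, was 2.74 above control at 24 to 72 h, the macrophage receptor CD163 1.60 and the myeloid adaptor TYROBP 1.27. The mean of the 14 genes lay at 9.58 to 10.79 in exposed and 8.22 to 9.44 in control arrays at 24 to 72 h, at 9.29 to 10.33 against 8.32 to 9.46 at 168 to 514 h, and at 8.46 to 9.01 against 8.07 to 8.94 at 1 to 4 h.

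At 2 and 4 h limma called 0 of the 14 neutrophil and macrophage genes (1 and 0 at an unadjusted p under 0.05). At these times 0.338% and 1.11% of all probe sets, and 0.503% and 1.48% of all genes, were called higher. The median differences of the 14 genes were 0.24 and 0.11. Of 10 measured lymphocyte genes 1 was higher at 24 to 72 h and 2 at 168 to 514 h, against 30.8% and 18.9% of all genes. The part of these blood and tissue cells in the calls of the 4 genes was not tested at any time. At 24 to 72 h 4 of 5 measured genes of differentiated keratinocytes and 5 of 8 fibroblast genes were called lower, and 1 fibroblast gene higher. The mean of the keratinocyte genes was 9.70 to 11.47 in exposed and 11.86 to 12.97 in control arrays at 24 to 72 h, and 9.03 to 9.71 against 12.98 to 13.15 at 168 h. The mean of 8 fibroblast genes was 11.22 to 11.82 in exposed and 11.64 to 11.97 in control arrays at 24 to 72 h, and 11.36 to 11.84 against 11.90 to 12.31 at 168 to 514 h, when the groups did not overlap. The muscle score was 7.31 to 12.65 against 10.30 to 13.34 at 24 to 72 h. The part of these cell types was not tested. With the muscle score in the fit, the calls of the 4 genes at all times and windows were as without it.

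**Figure D4:**
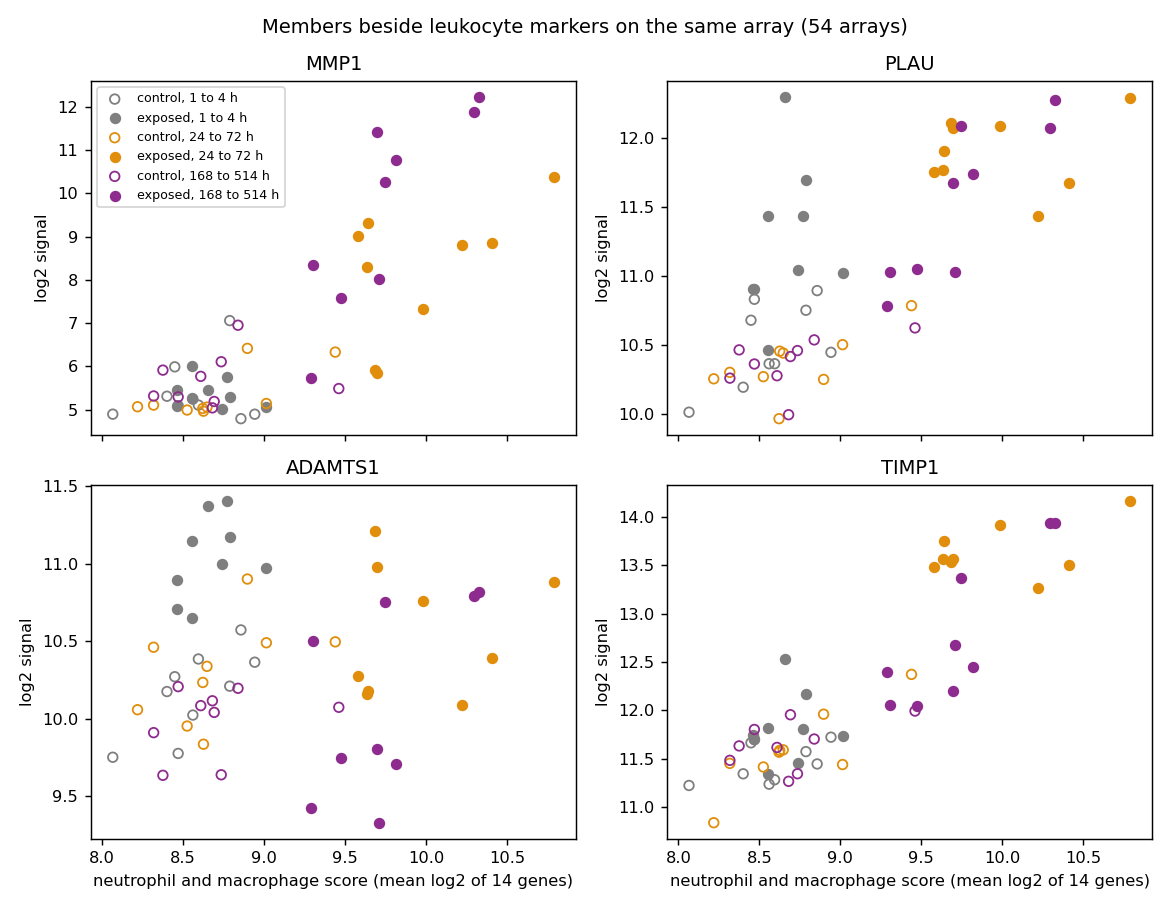
Log2 signal of each gene against the mean log2 value of 14 neutrophil and macrophage genes on the same array, for 27 exposed (filled) and 27 control (open) arrays, coloured by window. Exposed arrays of 1 to 4 h have scores of at most 9.01, and among them ADAMTS1 and PLAU reach 11.40 and 12.30.

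Each gene was last compared with all other genes by the correlation of the 27 exposed minus control differences of same-numbered arrays of a time. These are descriptions over shared arrays, without a test, and the number only matches arrays of a time. The companions named below were picked by these same differences, so a course or peak time like that of the gene follows largely from the choice. PLAU and TIMP1 were alike (r = 0.83), MMP1 less so (0.68 with TIMP1 and 0.63 with PLAU), and ADAMTS1 stood apart (0.26 with PLAU, -0.01 with TIMP1 and -0.30 with MMP1). Among 6764 other genes TIMP1 ranked 6 by likeness to PLAU, while PLAU ranked 70 by likeness to TIMP1. By likeness to MMP1, TIMP1 ranked 219 and PLAU 335, so many other genes were more like MMP1.

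The genes most like MMP1 were ADAM28 (r = 0.86), the secreted chaperone CLU (0.86), the granule protein TCN1 (0.86) and the nuclear lamin LMNB1 (0.86). ADAM28, TCN1 and LMNB1 had their largest difference at 168 h like MMP1, of 1.94, 3.15 and 1.95, and CLU at 336 h (2.09). The genes most like PLAU were the adhesion receptor ICAM1 (0.91), the cell cycle inhibitor CDKN1A (0.85), the transcription factor FOSL2 (0.84) and the cytokine receptor IL27RA (0.84). ICAM1 had differences of 0.74 (2 h), 1.48 (4 h) and 1.90 (24 h), where PLAU had 0.94, 1.26 and 1.70.

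The genes most like ADAMTS1 were NFKBIA (0.78), the inhibitor of NF-kappaB, the stress factor ATF3 (0.77), and the immediate early genes IER3 (0.75) and IER5 (0.73). All 4 had their largest difference at 4 h, of 0.94, 2.44, 1.74 and 2.06. The match was not close at all times, as ATF3 stood at 1.22 at 72 h and 1.75 at 336 h, where ADAMTS1 stood at -0.18 and 0.03. The genes most like TIMP1 were the haem oxygenase HMOX1 (0.92), the chemokine receptor CCR1 (0.92), the macrophage metal transporter SLC11A1 (0.91) and the membrane protein FXYD5 (0.90). At 24 h the first 3 stood at 2.54, 3.65 and 3.32 and at 4 h at 0.29, 0.73 and 0.22; TIMP1 stood at 2.14 and 0.61.

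**Figure D5:**
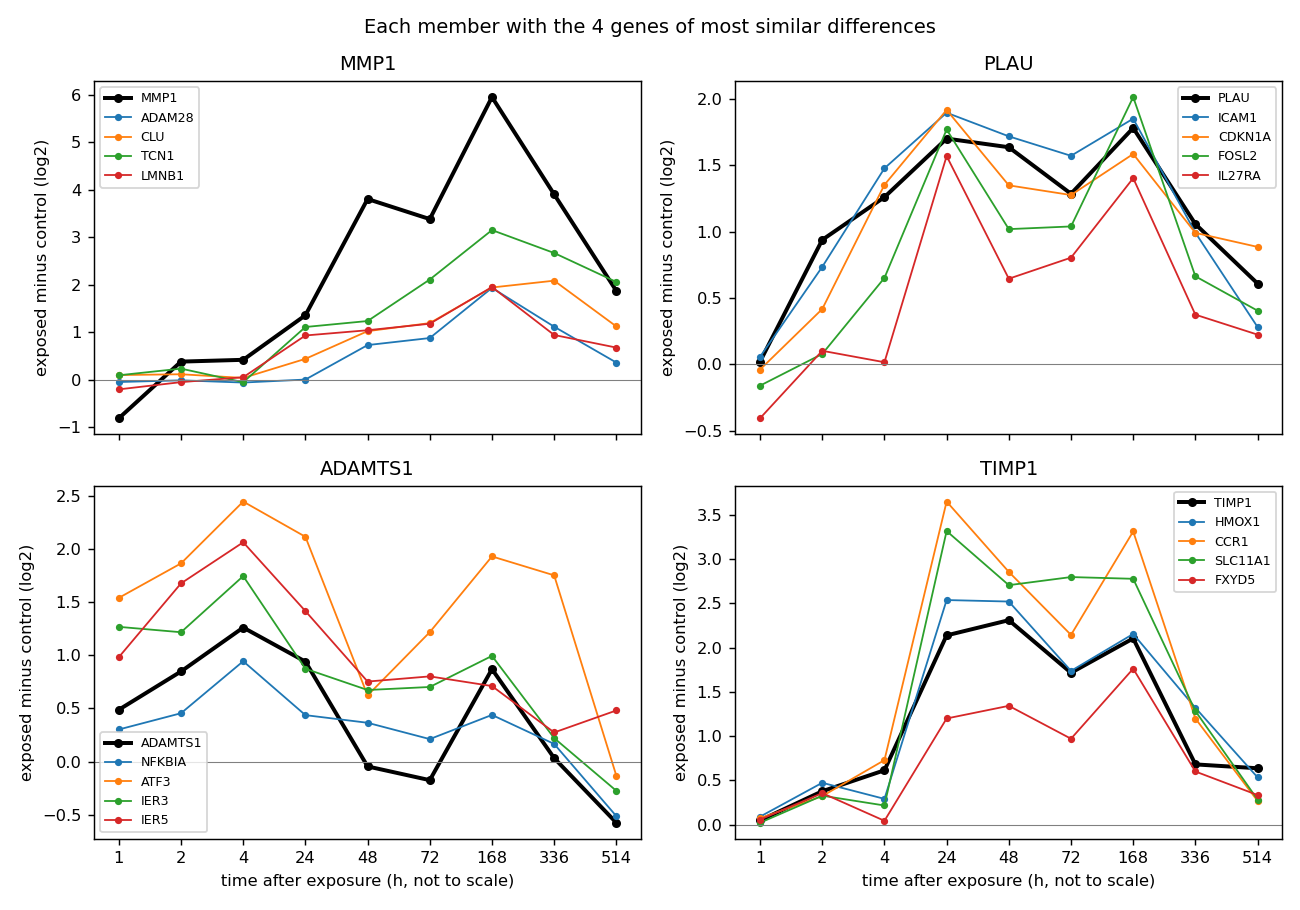
Exposed minus control difference (log2) of each of the 4 genes (black) and of the 4 genes with the highest correlation over 27 same-numbered differences, at 9 times (evenly spaced, not to scale). The companions of ADAMTS1 peak at 4 h, such as ATF3 at 2.44, and those of TIMP1 are near control until 4 h, such as HMOX1 at 0.29, and stand at 2.54 by 24 h.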

How the data were processed

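The authors deposited a log2 signal for each probe set of 63 Affymetrix porcine arrays; RMA and Partek are named in the submitters' processing notes, with no version, and the genome build is not given in the sources used here. They were used without further scaling. Of 24123 probe sets 124 controls were left out. All arrays were fitted in limma 3.58.1 (R 4.3.3) with 27 group means, 36 residual and 3.24 prior degrees of freedom, and p-values were two-sided and adjusted by Benjamini-Hochberg over 23999 probe sets. The fit takes exposed and control arrays as independent although the same animals gave both, and a sham group of 1 array to vary like the others. Same-numbered arrays shared a sacrifice day in 27 of 27 cases; whether a number is an animal is not stated. Residuals of all 3 same-numbered pairs correlated by over 0.1 at 5 of 9 times (1, 4, 72, 336 and 514 h), where the numbers were taken as pairs.

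Gene symbols came from the supplied annotation, which gave 10099 probe sets a single symbol and 198 several; 13826 were not listed. The highest-mean probe set stands for a gene. The 4 genes, the lists and the rules were chosen with earlier results of these data known. Named besides the 4 were, per list and window, up to 3 called genes of largest change, and the 4 genes of highest correlation; others named (such as MMP2, MMP9, TIMP3, ITGAM, S100A9) were picked after their values were seen.

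Alternatives were a replicate block, arrays of a time alone, sham as reference, a muscle covariate, repeated quantile normalization, a filter on the mean, all probe sets averaged, a variance trend, the labelling run, and each array left out.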

Additional observations from a re-analysis of the deposited data

Results flagged for a closer look

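The TIMP1 difference between exposed and control skin was larger at 24 h than at 4 h by 1.53 (adjusted p = 0.00115), and it changed by -1.42 from 168 to 336 h (adjusted p = 0.0122), both by a limma test of the change itself. The times of each step lay in different scan periods, whose part was not tested. MMP1 in the sham array of 2 h was 9.03, with the next of the 9 sham arrays at 5.35. The gap was 0.895 of the range, above Dixon's 95% critical value for 9 samples. Chance flags about 1 in 20 such groups, and the 9 arrays come from different times.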

How the results depend on the processing

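The number of arrays limits what can be called, and MMP1 control values near the lower end of the scale limit its folds. Results are differences of the 4 genes at 9 times, 3 windows, steps, F tests and sham. Averaging all probe sets of a gene kept 88 of 88 on their side of the threshold with their sign. MMP1, PLAU and TIMP1 have 1 probe set each, so averaging left their values as they were and could change those of ADAMTS1 alone. Leaving out 1 array kept 432 of 468. Residuals of same-numbered arrays correlated by over 0.1 in 21 of 27 pairs, so a pairing was not established at 2, 24, 48 and 168 h. A replicate block kept 74 of 84 and lost none. It added MMP1 at 24 h (1.36, adjusted p = 0.0352), PLAU at 514 h (0.61), ADAMTS1 at 514 h (-0.58) and at 24 to 72 h (0.24), TIMP1 at 336 h (0.68) and 514 h (0.64), and the steps of MMP1 (2.44, adjusted p = 0.0433) and ADAMTS1 (-0.99, adjusted p = 0.00786) from 24 to 48 h and of ADAMTS1 from 72 to 168 h (1.04, adjusted p = 0.0187) and 168 to 336 h (-0.84, adjusted p = 0.0321). It changed no other call.

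With arrays of a time alone, calls were lost for PLAU at 2 h (0.94) and 4 h (1.26), ADAMTS1 at 2 h (0.85) and 4 h (1.26) and MMP1 at 336 h (3.90) and 514 h (1.87), and gained for MMP1 at 24 h (1.36), TIMP1 at 336 h (0.68) and ADAMTS1 at 514 h (-0.58); these fits hold fewer arrays. With sham arrays as the reference, calls were lost for MMP1 at 514 h (2.03), PLAU at 2 h (0.64) and ADAMTS1 at 2 h (0.56) and 24 h (0.58). Uncalled values changed sign for MMP1 at 1 h (0.22), 2 h (-3.55) and 1 to 4 h (-0.99), ADAMTS1 at 72 h (0.11) and 336 h (-0.0025) and TIMP1 at 2 h (-0.38). The 2 h values rest on 1 sham array. The muscle covariate changed the sign of MMP1 at 1 to 4 h (-0.018) and ADAMTS1 at 336 h (-0.0014), both uncalled. Repeated quantile normalization turned uncalled MMP1 at 1 to 4 h (-0.00087), PLAU at 1 h (-0.014) and TIMP1 at 1 h (-0.0054), lost ADAMTS1 at 2 h (0.77) and gained it at 514 h (-0.63). The filter on the mean, which left MMP1 out, gained PLAU at 514 h (0.61), as did the labelling run (0.61), which also gained MMP1 at 24 h (1.36). A variance trend lost MMP1 at 514 h (1.87). The causes were not tested.

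Leaving out 1 array gave ranges of -0.0897 to 0.188 for PLAU and -0.0232 to 0.181 for TIMP1 at 1 h, -0.192 to 0.186 for MMP1 at 1 to 4 h, 0.79 to 1.05 for PLAU and 0.67 to 0.99 for ADAMTS1 at 2 h. For ADAMTS1 they were -0.142 to 0.0589 at 48 h, -0.388 to 0.00802 at 72 h, 0.17 to 0.30 at 24 to 72 h and -0.216 to 0.181 at 336 h. For MMP1 at 24 h it was 0.88 to 1.62. At 514 h they were 1.42 to 2.56 for MMP1 and 0.43 to 0.75 for PLAU. For sham minus control they were -0.41 to 0.21 for MMP1 and -0.104 to 0.0401 for TIMP1. The TIMP1 steps, for which this was added after seeing the data, were 1.35 to 1.71 from 4 to 24 h and -1.62 to -1.33 from 168 to 336 h.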
